A study of Drosophila melanogaster with 10 samples.

Results

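The genes described here lie in or beside the pericentromeric heterochromatin of Drosophila melanogaster, the compact, repeat-rich chromatin that flanks the centromeres. The loci were taken by position, as deposited in build dm3: loci on the scaffolds 2LHet, 3LHet, 3RHet, XHet or U, loci on arm 2L that start at or above 22200000, and loci on arm 3L that start at or above 22900000. The rule took 132 of the 13984 genes in the files. With a mean RNA level of at least 1 RPKM (read density scaled by gene length and library size) over the 6 RNA libraries, 64 of the 132 remained, against 7690 of the 13984. The 64 comprise 15 genes on 2L, 3 on 2LHet, 21 on 3L, 12 on 3LHet, 7 on 3RHet and 6 on XHet.

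Pericentromeric heterochromatin carries histone H3 methylated at lysine 9, which is bound by the protein HP1a. Genes of euchromatin placed beside it by a rearrangement are often silenced, whereas some genes that reside there, light among them, are known in flies to need the heterochromatic setting for full activity. In ovarian somatic cells the nuclear protein Piwi, guided by small piRNAs, represses transposable elements and is known to bring H3K9 methylation to their copies, which are dense around the centromeres.

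Poly(A) RNA was sequenced from cultured ovarian somatic cells (OSC), a line of somatic ovary cells, kept at 26 °C; a single siRNA transfection preceded collection by 2 days. The control received an siRNA against EGFP, a gene that flies do not have. The 5 other cultures received siRNAs against Piwi, against Armi (an RNA helicase of piRNA production), against Mael (a factor acting downstream of Piwi), against CG3893 (a zinc finger protein of the nuclear piRNA pathway) or against HP1a. With a single library in each group, the spread between cultures is unknown, no difference could be checked against it and no test was made. The Pol II values of the series are for transposable elements and are not used here.

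By the library totals recovered from the transposable element values, 1 RPKM stands for 18.6 reads per kilobase in HP1a, the shallowest library, and for 22.3 to 36.7 in the others, if gene values share these totals, which no source used here states. The targeted RNAs stood at 30.1% of control for piwi, 35.9% for armi, 10.3% for mael, 48.4% for CG3893 and 30.2% for the HP1a gene, each in its own library. Of the markers of ovarian soma, tj stood between 151 and 206 RPKM over all libraries and zfh1 between 105 and 130 RPKM, while Fas3 was at 41.5 RPKM in the control and 108 in HP1a. The summed level of 5 germ cell markers was 2.35 to 9.27 RPKM, highest in HP1a, where vas was at 6.38 RPKM against 1.56 in the control; vas was the 1 of the 5 with a mean of at least 1 RPKM, and nos and osk stayed at or under 0.118 RPKM. The summed level of 3 hemocyte markers was 8.85 to 21.6 RPKM, also highest in HP1a and nearly all from srp, while Hml and nimC1 were at or near 0. Summed levels were 10.4 to 13.1 RPKM for 3 neuronal and 20.6 to 28.8 RPKM for 3 muscle markers. The part of these markers in the results was not tested.

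The 64 genes, which the filter kept because they were expressed, covered a wide range of levels. Their mean level had a median of 45.1 RPKM, and quartiles of 9.20 and 93.2 RPKM, against a median of 24.0 RPKM over all 7690 genes. The highest were the ribosomal protein genes Qm, the name in the files for the RpL10 gene beside CkIIalpha (3822 RPKM), RpL21 (3200 RPKM), RpL5 (2735 RPKM) and RpL15 (2186 RPKM). Next came CG32230, a subunit gene of respiratory complex I (663 RPKM), the ubiquitin-conjugating enzyme gene CG40045 (253 RPKM), CG41128, with the synonym Minos1b in RefSeq and given here to the mitochondrion (226 RPKM), Ucrh, a subunit gene of complex III (203 RPKM), CkIIalpha, the catalytic subunit gene of casein kinase II (187 RPKM), and CG40451, listed in RefSeq as the mitochondrial import gene Tim17b (170 RPKM). Of the 64, 62 are protein-coding in RefSeq release 6 and CG40005 and CG41454 are listed there as pseudogenes. The loci span a median of 6.45 kb, from 0.58 kb for CG40472 to 225 kb for Snap25, against a median of 2.52 kb over all genes. The remaining 68 loci were below a mean of 1 RPKM: 48 were at 0 in all 6 libraries, and the 42 loci on the unplaced scaffold U were all among the 68, with means of at most 0.193 RPKM.

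Changes are given as log2((knock-down + 1)/(control + 1)) of the RPKM values, so that changes of genes near 1 RPKM are understated. A gene is counted as past a limit at 2-fold or 1.5-fold on this scale. Values of single genes are given in the order control, Piwi, Armi, Mael, CG3893 and HP1a.

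In the knock-downs of the 4 piRNA factors, most pericentromeric genes stayed close to control. Past 1.5-fold higher were 1 of 64 in Piwi (2.96% of all genes tested), 1 in Armi (2.15% of all), 3 in Mael (3.90% of all) and 1 in CG3893 (2.34% of all). Past 1.5-fold lower were 0 in Piwi (1.77% of all), 0 in Armi (1.13%) and 0 in Mael (2.64%), and 1 in CG3893 (0.832%). Past 2-fold, Snap25 was the 1 gene higher in Piwi (1.56% of all) and the 1 gene higher in Mael (2.42% of all), while 0 were higher in Armi (0.975%) and CG3893 (1.01%). None of the 64 was past 2-fold lower in Piwi (0.468%), Armi (0.429%), Mael (0.806%) or CG3893 (0.377%). With so few genes past either limit, the shares are near the background.

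The centre of the pericentromeric genes lay slightly above that of other genes in the same 4 libraries. The median log2 changes in Piwi, Armi, Mael and CG3893 were 0.06, 0.07, 0.06 and 0.11. Over all genes they were -0.04, -0.03, -0.05 and -0.02, and over other genes weighted to the same levels -0.05, -0.03, -0.08 and -0.03. These 4 differences share the control library and are not independent of each other. The 63 genes of chromosome 4 with a mean of at least 1 RPKM had medians of 0.04, 0.01, 0.18 and 0.12. Those too lay above the medians of all genes, so the shift was not particular to the pericentromeric genes. Set against other genes at each level, the median in Mael was 0.01 for the 16 genes at 100 RPKM or more, where 900 other genes had -0.17, and 0.09 for the 21 genes between 30 and 100 RPKM, where 2299 others had -0.09. In the 10 to 30 RPKM range, 10 pericentromeric and 2592 other genes had -0.02 and -0.03.

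In HP1a the changes were wider and went both ways. Past 1.5-fold, 8 of 64 genes were lower (12.5%, against 5.55% of all genes and 5.95% at like level) and 6 were higher (9.38%, against 7.00% of all and 6.53% at like level). Of the 8, CG41452 and CG32458 are entries of a single gene in RefSeq, and CG40472 and CG40002 may share reads, so the 8 are not 8 separate measurements. Past 2-fold, 2 were lower (1.90% of all) and 4 were higher (3.85% of all). With a pseudocount of 5 RPKM in place of 1, 4 genes were past 1.5-fold lower and 1 past 2-fold lower. No share over all genes is given at that pseudocount, so whether the excess over all genes remains there is not known. Taken in either direction, 14 of the 64 were past 1.5-fold, 21.9% against 12.5% of all genes. The median log2 change was -0.11, near the -0.08 of all genes and the -0.10 of other genes at like level. Of the 64, 43 lay below 0, but the share of all genes below 0 is not given. As the median of all genes also lay below 0, this count alone does not set the 64 apart. Over all 5 knock-downs, 48 of the 64 genes were past 1.5-fold in none, and 16 were past it in at least 1 (25%, against 15.1% of all genes). The ratio of the highest to the lowest of the 6 levels, after adding 1 RPKM, had a median of 1.29 over the 64 genes and 1.23 over all genes.

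**Figure D1:**
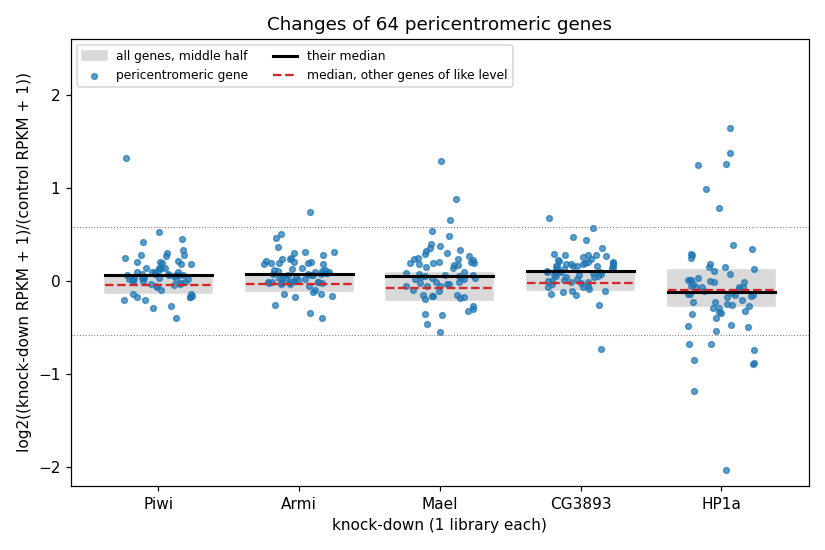
Log2 change in RNA (vertical axis, RPKM with a pseudocount of 1) of the 64 pericentromeric genes in each of 5 knock-downs, 1 library each. Points are genes, black bars their medians, red dashed lines the median of other genes weighted to the same levels, grey boxes the middle 50% of all genes (quartile to quartile) and dotted lines the 1.5-fold limits. In Piwi, Armi, Mael and CG3893 the black bars lie above the red ones, while in HP1a they nearly meet and single genes reach -2.03 and 1.65.

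The HP1a library held the lowest of the 6 values for 39 of the 64 genes (60.9%, against 37.0% of all genes), a description of the levels that uses no library as reference. The control was lowest for 13 (16.5% of all genes), Piwi for 3 (10.4%), Armi for 3 (11.0%), Mael for 4 (18.6%) and CG3893 for 2 (6.53%). The Mael library held the highest value of 20 genes (31.2%, against 12.9% of all) and the CG3893 library that of 14 (21.9%, against 12.9%). The control held the highest value of 9 of the 64, 14.1% against 31.4% of all genes, HP1a that of 9 (24.1%), Piwi that of 7 (8.28%) and Armi that of 5 (10.5%). Set against the median of the Piwi, Armi, Mael and CG3893 libraries in place of the control, a reference chosen after the values were seen, the HP1a library had a median log2 change of -0.21 over the 64 genes. It was -0.05 over all genes and -0.06 over other genes at like level, and 51 of the 64 lay below 0 (79.7%, against 58.9% of all). On that reference 9 genes were past 1.5-fold lower (3.56% of all) and 6 past it higher (4.85% of all), with 3 past 2-fold lower (1.44%) and 2 past it higher (2.15%). The 64 genes already lay slightly above other genes in these 4 libraries. The values on that reference, and the 39 lowest in HP1a, can therefore partly restate that shift. Against the control, the HP1a median was -0.11, near the -0.10 at like level.

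**Figure D2:**
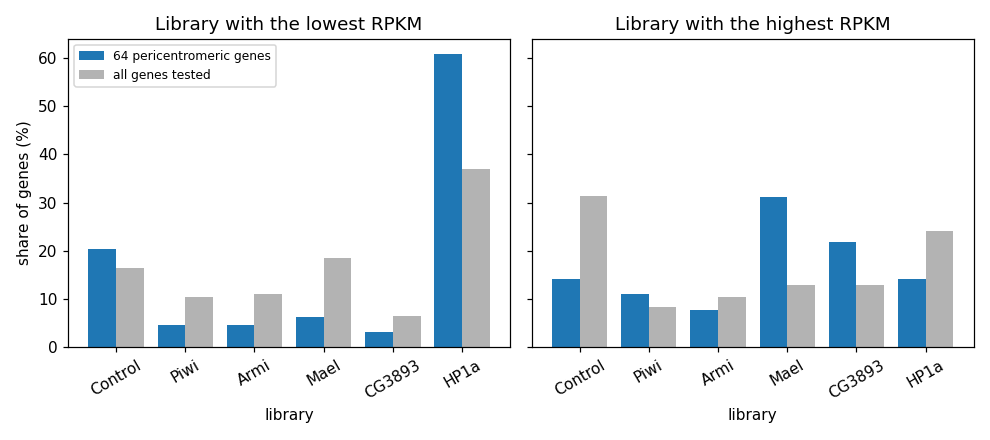
Share of genes (vertical axis, percent) for which each of the 6 RNA libraries held the lowest (left) or the highest (right) RPKM. Blue bars are the 64 pericentromeric genes and grey bars all 7690 genes tested; HP1a is lowest for 60.9% of the former and 37.0% of the latter, and Mael is highest for 31.2% and 12.9%.

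Among genes of chromatin and transcription, Parp stood apart in HP1a. It encodes poly(ADP-ribose) polymerase, which modifies chromatin proteins and is known in flies for loosening chromatin at active loci. Parp (3RHet, 1935204 to 2026815) was at 102, 104, 105, 81.4, 102 and 24.2 RPKM in the 6 libraries. The HP1a library alone lay far below the rest, at 23.7% of control, a log2 change of -2.03, and 36 of the 7690 genes had a lower change there. None of the other 6 genes of this group was past 1.5-fold in HP1a, where 12.5% of all genes were past it either way. CG40351, the H3K4 methyltransferase gene Set1, was at 19.9, 20.9, 20.9, 22.9, 22.6 and 18.7 RPKM. The cohesin gene vtd (Rad21 in other species) was at 57.6, 57.6, 56.6, 61.3, 60.3 and 43.4 RPKM, lowest in HP1a with a log2 change of -0.40. MED21, a Mediator subunit gene, Tif-IA, an initiation factor gene of RNA polymerase I, Mes2 and ATbp had log2 changes between -0.06 and 0.28 in HP1a.

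Of 9 genes of the respiratory chain and mitochondrion, 2 were past 1.5-fold lower in HP1a, where 5.55% of all genes were. CG40472 (3LHet, 410461 to 411040) was at 159, 166, 168, 183, 181 and 85.2 RPKM. Its neighbour CG40002 (459585 to 460457), named ND-AGGG in RefSeq, was at 83.7, 88.2, 88.5, 94.9, 93.9 and 51.97 RPKM. Both carry the RefSeq synonym NDUFB2, a complex I subunit, lie 48.5 kb apart and had log2 changes of -0.89 and -0.68 in HP1a, so reads of one copy may be counted in the other. In both, the 5 other libraries lay close together and the HP1a library below them. CG40042, the mitochondrial import gene Tim23 (2LHet, 167979 to 169120), was at 179, 175, 175, 158, 165 and 126 RPKM, with a log2 change of -0.50 in HP1a. Of the 9 mitochondrial genes, 7 lay below 0 in HP1a with a median log2 change of -0.16, near the medians of other genes, -0.12 at 30 to 100 RPKM and -0.20 at 100 RPKM or more. The exceptions were Ucrh, at 172 RPKM in the control and 175 in HP1a, with log2 changes of 0.28 to 0.37 in the 4 piRNA factor libraries, and CG3262 (Nubpl in RefSeq), at 0.01 in HP1a.

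The 4 ribosomal protein genes were at or below control in every knock-down, between log2 changes of -0.18 and -0.36 in HP1a. RpL21 was at 3737, 3314, 3403, 2706, 3124 and 2914 RPKM and lowest in Mael, with a log2 change of -0.47 there. RpL5 was at 3078, 2677, 2797, 2561, 2860 and 2437 RPKM, RpL15 at 2269, 2230, 2258, 2104, 2250 and 2007 RPKM. None of the 4 was past 1.5-fold in any knock-down, where 15.1% of all genes were past it in at least 1. At 100 RPKM or more other genes had a median of -0.20 in HP1a.

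Of 6 genes of RNA processing, 1 was past 1.5-fold in HP1a, where 12.5% of all genes were past it either way. Dbp80, a DEAD-box RNA helicase gene spread over 134 kb (3LHet, 2409840 to 2544171), was at 51.7, 42.8, 47.5, 41.7, 50.6 and 27.7 RPKM. HP1a was the lowest, with a log2 change of -0.88, and Piwi and Mael lay below the control too, at -0.27 and -0.30. The splicing factor genes Spf45 and CG17454, the 3' end processing gene su(f) and CG17018, an RNA-binding protein gene named Marf1 in RefSeq, had log2 changes between -0.23 and 0.01 in HP1a. AGO3, which encodes a PIWI protein of germ cells, was at 0.96, 1.41, 1.24, 1.85, 1.19 and 1.56 RPKM. It was the 1 member with a control value under 1 RPKM, and it passed the mean of 1 RPKM through the other libraries.

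Genes of membrane traffic and adhesion held both the largest change in the piRNA factor libraries and several of those in HP1a. Snap25, a SNARE gene of vesicle fusion known from neurons (3L, 24067328 to 24292305), was at 3.63, 10.5, 6.75, 10.3, 6.40 and 4.51 RPKM. The 4 piRNA factor libraries lay above the control and HP1a, with log2 changes of 1.32, 0.74, 1.29 and 0.68, against 0.25 in HP1a. Of all 7690 genes, 75 had a higher change than Snap25 in Piwi and 138 in Mael. With a pseudocount of 5 RPKM it was past 2-fold in neither. CG32350, the gene of Vps11, a subunit of the tethering complex that brings vesicles to the lysosome, was at 17.97, 18.3, 19.7, 21.6, 20.3 and 10.9 RPKM. It was lowest in HP1a, with a log2 change of -0.68. The gene lt encodes Vps41 of the same complex and is the classic example of a gene that works in heterochromatin. It was at 34.1, 37.6, 39.6, 44.5, 39.4 and 37.2 RPKM, so that no library was below the control, and its log2 change in HP1a was 0.12. CG41099 (3RHet, 1685101 to 1706064), with the synonym Rabankyrin in RefSeq, was at 39.7, 42.5, 41.8, 48.8, 48.4 and 69.1 RPKM, highest in HP1a with 0.79. The adhesion gene alpha-Cat was between 96.4 and 121 RPKM in all 6 libraries.

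The neighbouring entries on 3L nrm, CG41452 and CG32458, are a single gene, nrm, in RefSeq release 6, which encodes the adhesion protein Neuromusculin. They did not move alike. CG41452 (23018643 to 23020699) was at 4.34, 4.12, 3.04, 4.60, 4.12 and 1.36 RPKM, with a log2 change of -1.18 in HP1a, and CG32458 (23024122 to 23027541) at 4.28, 3.73, 3.41, 3.74, 3.99 and 1.93 RPKM, with -0.85. The entry nrm, which covers 39.7 kb and both of these loci, was between 1.95 and 2.20 RPKM in all 6 libraries. As the 3 overlap, reads of one may be counted in another.

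Among 6 signalling genes, 1 was past 1.5-fold in at least 1 knock-down (15.1% of all genes), Gpb5 in CG3893. Gpb5, which encodes a glycoprotein hormone subunit, was at 2.08, 1.79, 1.42, 1.10, 0.86 and 2.48 RPKM. The CG3893 value was 41.3% of control, with a log2 change of -0.73, but with a pseudocount of 5 RPKM it was not past 1.5-fold, and Gpb5 ends where the far more abundant CG40042 begins. The G protein alpha subunit gene cta, needed for cell shape change in gastrulation, was at 33.7, 35.3, 36.1, 39.1, 37.7 and 33.7 RPKM. CkIIalpha, CG17494 (Slmap in RefSeq), Alg-2 and nAcRalpha-80B, an acetylcholine receptor subunit gene, had log2 changes between -0.48, for CG17494, and -0.07 in HP1a.

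Among genes of metabolism, nvd was lower and CG17374 higher in HP1a. The gene nvd encodes the Rieske oxygenase Neverland of the first step from cholesterol to ecdysone. It stands at 3L, 24317966 to 24394755, beside Snap25, and was at 9.05, 10.5, 11.4, 10.2, 10.7 and 4.99 RPKM. HP1a was the lowest, with a log2 change of -0.75, where Snap25 25.7 kb away was at 0.25. CG17374, the fatty acid synthase gene FASN3, was at 3.10, 4.60, 4.10, 5.48, 5.09 and 7.15 RPKM, above control in all knock-downs; the log2 change was 0.99 in HP1a and 0.66 in Mael. Gfat1, of the hexosamine pathway, was between 5.95 and 8.36 RPKM.

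Of the 20 genes given no role here, 4 were past 1.5-fold higher in HP1a (7.00% of all genes) and 0 lower (5.55% of all). CG42402 (3RHet, 2381981 to 2446597) was at 8.82, 11.3, 11.2, 8.46, 9.21 and 29.7 RPKM, 3.37-fold above control in HP1a. It had the highest change of the 64, 1.65, and 120 of the 7690 genes lay above it. CG40160 (3LHet, 1562356 to 1572556), with a serine protease homologue as synonym in RefSeq, was at 6.20, 6.80, 7.46, 5.46, 6.95 and 16.2 RPKM, and CG17698 (3L, 23731057 to 23742158) at 16.6, 20.2, 19.9, 23.5, 20.3 and 40.7 RPKM. Their log2 changes in HP1a were 1.26 and 1.24, and in both genes the HP1a value lay well above the 5 others.

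CG41454 was above control in all 5 knock-downs and is deposited as 2 expressed copies on 3L. Summed, it was at 15.3, 20.7, 21.4, 28.9, 21.2 and 41.2 RPKM, and its log2 change was 1.38 in HP1a and 0.88 in Mael. The copy at 23124543 to 23126972 was at 0.894, 4.79, 3.84, 9.27, 3.86 and 18.1 RPKM. The copy at 23130644 to 23133073 was at 14.4, 15.9, 17.6, 19.6, 17.3 and 23.2 RPKM. The first copy held the larger part of the difference from control in Piwi, Mael and HP1a. In Armi and CG3893 both copies differed from control by about the same amount. Near-identical copies can share reads, and the first copy overlaps the end of CG33217, which was at 26.9 RPKM in the control and 19.1 in HP1a. CG40178, named l(3)80Fg in RefSeq (3LHet, 1181139 to 1396811), was at 6.82, 10.2, 10.1, 9.30, 6.24 and 7.69 RPKM, with log2 changes of 0.52 in Piwi and 0.50 in Armi, just under the 1.5-fold limit, and -0.11 in CG3893.

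The lowest changes in the piRNA factor libraries were small. CG32457, a gene of 3L, was at 6.86, 4.97, 7.49, 5.11, 8.42 and 8.98 RPKM, with -0.40 in Piwi, the lowest there among members with a mean of at least 5 RPKM. CG17490 on 2L was at 27.6, 22.4, 24.6, 27.4, 29.0 and 22.9 RPKM, with -0.29 in Piwi and -0.16 in Armi. On XHet, CG17162 was at -0.21 in Piwi, CG17159 at -0.17 in Armi and -0.15 in CG3893, and CG17163 at -0.10 in Armi. CG17493 on 2L was among the highest in CG3893, at 0.29. None of these was past 1.5-fold in any knock-down.

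**Figure D3:**
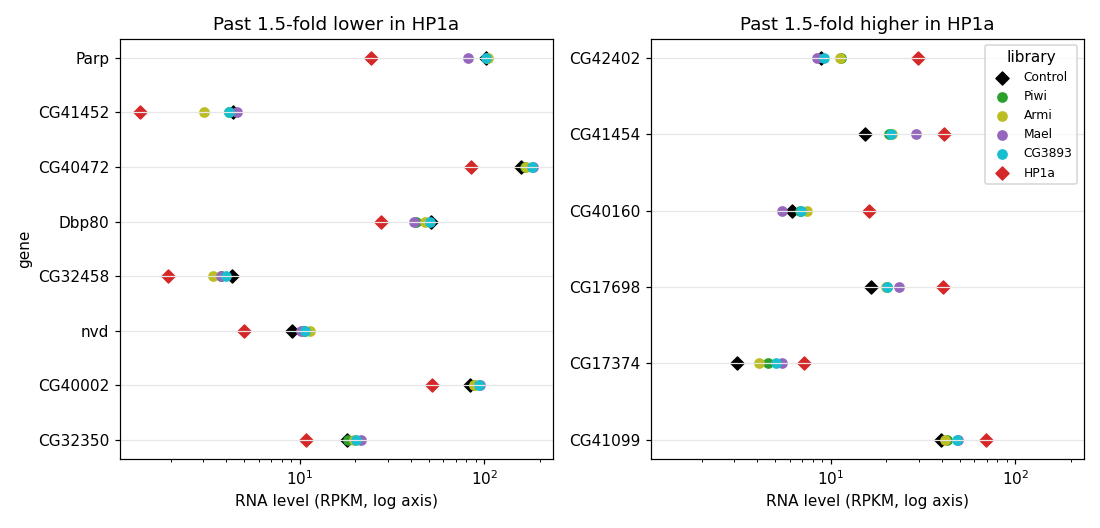
RNA levels (horizontal log axis, RPKM) in the 6 libraries of the 8 genes past 1.5-fold lower (left) and the 6 past 1.5-fold higher (right) in HP1a. Diamonds are the control (black) and HP1a (red) libraries and circles the other 4; in each row the red diamond lies outside the other 5 values, from Parp at 24.2 RPKM to CG42402 at 29.7 RPKM.

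By position, the 14 genes past 1.5-fold in HP1a lay on 3L, 3LHet and 3RHet; over all genes 7.00% were past it higher and 5.55% lower. On 2L 0 of 15 genes passed this limit either way in any knock-down, and their HP1a changes ran from -0.48 for CG17494 to 0.29 for CG40439. On 3L 2 of 21 were higher and 4 lower, on 3LHet 2 of 12 higher and 3 lower, and on 3RHet 2 of 7 higher and 1 lower. On XHet 0 of 6 passed in any knock-down, and the 6 HP1a changes lay between -0.26 and 0.01. On 2LHet 0 of 3 passed in HP1a. Over all genes 15.1% were past 1.5-fold either way in at least 1 knock-down. With 15 genes on 2L and 6 on XHet, a count of 0 can occur at that share, and whether the regions differ was not tested.

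Of 58 pairs of adjacent expressed genes, 34 lay on the same side of 0 in HP1a and 24 on opposite sides. As 43 of the 64 genes lay below 0, unrelated pairs would often share a side too. No share for unrelated pairs was computed, so the 34 are not read as a result about neighbours. CG40472 and CG40002, and Alg-2 at -0.29 and Parp, lay on the same side, but some neighbours were far apart. In HP1a, CG41454 at 1.38 lies between CG33217 at -0.47 and CG32350 at -0.68, and Parp at -2.03 and CG42402 at 1.65 are adjacent among the expressed genes of 3RHet, 355 kb apart. CG17698 at 1.24 follows CG17454 at -0.15 at a distance of 21.3 kb.

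**Figure D4:**
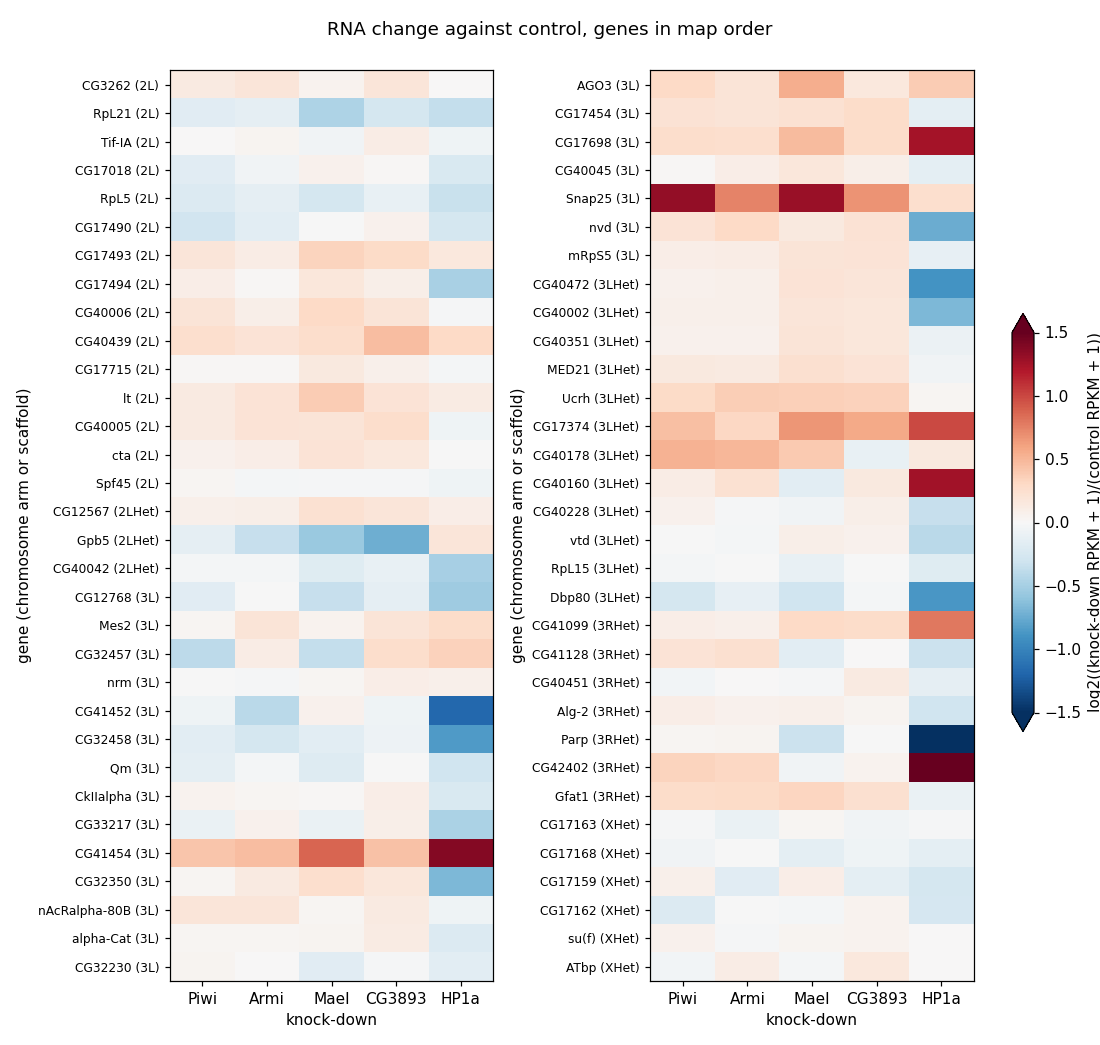
Log2 change in RNA against control (colour, red higher and blue lower, saturated beyond 1.5) of the 64 genes (rows, in map order along each arm or scaffold, read down the left and then the right panel) in 5 knock-downs (columns). The 2L and XHet rows are pale throughout, Snap25 is red in Piwi, Armi, Mael and CG3893, and the HP1a column holds the darkest cells, Parp at -2.03 and CG42402 at 1.65.

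Locus length, which in heterochromatin is often due to long introns filled with repeats, did not sort the HP1a changes in 1 direction. Of 10 genes of 50 kb and over, 3 were past 1.5-fold lower (Parp, Dbp80 and nvd) and 1 higher (CG42402). Among all genes of that length, 29 of 165 were past 1.5-fold lower and 27 higher. Of 15 genes from 10 to under 50 kb, 0 were lower and 3 higher, against 69 lower and 127 higher of all 930. Of 39 shorter genes 5 were lower and 2 higher, against 329 lower and 384 higher of all 6595. AGO3, Snap25, CG40178 and CG40006, all longer than Parp, had HP1a changes of 0.38, 0.25, 0.15 and -0.02, while Dbp80, also longer, had -0.88.

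**Figure D5:**
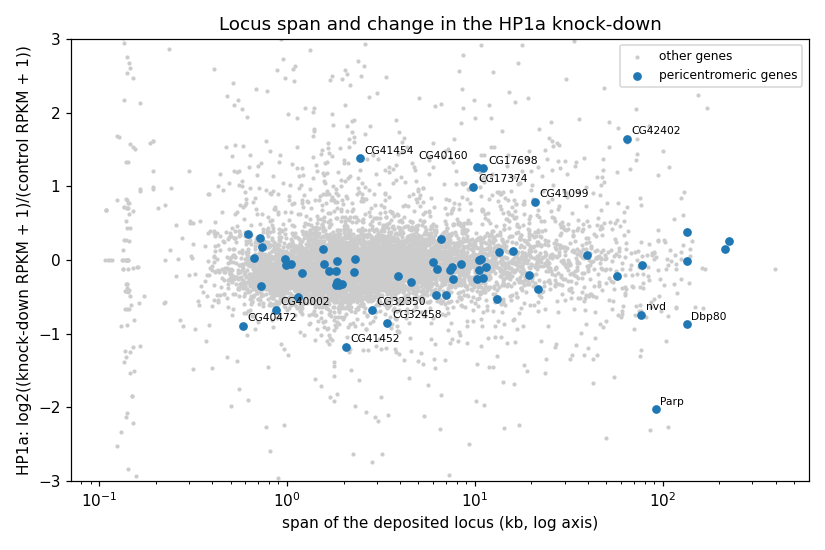
Span of the deposited locus (horizontal log axis, kb) against the log2 change in HP1a (vertical axis) for the 64 pericentromeric genes (blue) and other genes with a mean of at least 1 RPKM (grey); 34 other genes lie outside the axis limits of 3 in either direction. Labelled are the 14 genes past 1.5-fold, which run from 0.58 kb for CG40472 to 134 kb for Dbp80.

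At the limits of the rule, the last expressed genes outside it on 2L were CG1832, CG3635 and Ir40a, with HP1a changes of -0.09, 2.31 and 1.65, and the first inside were CG3262, RpL21 and Tif-IA, at 0.01, -0.36 and -0.06. CG3635 was also at 3.11 in Piwi and 3.51 in Mael. On 3L the last outside were Chro, Ssl1 and CG11133, at -0.13, -0.42 and 0.13, and the first inside CG12768, Mes2 and CG32457, at -0.53, 0.28 and 0.34. Just under and just over the mean of 1 RPKM stood CG12460 and AGO3, at 0.94 and 1.37 RPKM. In HP1a 7.00% of all genes were past 1.5-fold higher and 5.55% lower. In the last 1 Mb of 2L before its limit, 6 of 41 genes were past 1.5-fold higher and 3 lower in HP1a, and in that of 3L 0 of 36 were higher and 2 lower. On chromosome 4, which is also rich in HP1a, 5 of 63 genes were past 1.5-fold higher and 1 lower in HP1a, with a median log2 change of 0.07, against -0.11 for the pericentromeric genes. The difference between these sets was not tested.

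Of 24 genes for heterochromatin factors, 23 had a mean of at least 1 RPKM, and in Piwi, Armi, Mael and CG3893 0 of the 23 were past 1.5-fold in either direction. Over all genes 2.15% to 3.90% were past it higher and 0.832% to 2.64% lower in these 4 libraries. In HP1a 1 was lower (5.55% of all genes), the HP1a gene itself, from 397 to 120 RPKM. Higher was 1 (7.00% of all genes), wde, a cofactor gene of H3K9 methylation, from 8.92 to 16.8 RPKM. The H3K9 methyltransferase genes Su(var)3-9, egg and G9a had log2 changes of -0.42, -0.05 and 0.19 there.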

How the data were processed

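The authors deposited gene RNA levels in RPKM, per the file headers, as 14145 entries; 161 entries repeat a gene name and were summed with it. Build dm3 and the tools TopHat2 2.0.7, Bowtie2 2.0.0, Cufflinks 2.0.2 and cutadapt stand in the submitters' processing notes. No source used here gives the annotation, the strand setting or the handling of reads with several matches. Repeats are common in these regions, so reads may be shared between copies, and 14 of the 64 genes overlap another deposited entry. Whether starts count from 0 or 1 is not stated.

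Depth was computed from the RPKM values of the transposable element files by searching for whole reads and lengths: 42 of 43 low families gave whole lengths within 0.01 bases. No interval is given for single genes, as their counted lengths are unknown.

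Log2 changes used a pseudocount of 1 RPKM on genes whose mean reached 1 RPKM. With 1 library per group, size limits of 2-fold and 1.5-fold stand in place of a test. Other genes were weighted to the members' levels in 5 ranges of mean RPKM, with bounds at 1, 3, 10, 30 and 100. Named are the 10 most abundant members, the 6 highest and 6 lowest changes per knock-down at a mean of at least 5 RPKM, a list of well-studied pericentromeric genes, and members past 1.5-fold; the roles were assigned after the values were seen. The rule uses position and mean level, but members and lists were chosen with earlier results of these data known. RefSeq release 6 served for names alone: 64 of 64 matched, 20 under another symbol. The fold calculation was tested on simulated data (Python 3.11.15, pandas 2.3.3).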

Additional observations from a re-analysis of the deposited data

How the results depend on the processing

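No paired analysis was possible because each group holds 1 library. Of 150 planned recalculations of the 25 counts and medians, 132 stayed within 1.5 times the count or 0.1 of the median and 18 moved. No median changed sign, and counts cannot do so. As the medians themselves ran from -0.11 to 0.11, a limit of 0.1 says little of them. Centred on the median of all genes, the HP1a median went from -0.11 to -0.04 and is counted as unmoved. With a pseudocount of 0.1 RPKM, 1 gene was past 1.5-fold lower in Mael, and in CG3893 1 was past 2-fold lower and 2 past 1.5-fold higher. With a pseudocount of 5 RPKM, which lowers changes of low genes, 0 were past 2-fold higher in Piwi and in Mael, 0 past 1.5-fold higher in Armi and in CG3893 and 0 lower in CG3893, while in HP1a 1 was past 2-fold and 4 past 1.5-fold lower. At a mean of at least 5 RPKM, which left 55 genes, 0 were past 1.5-fold lower in CG3893 and 1 past 2-fold lower in HP1a. Centring on the median of all genes gave 2 past 1.5-fold higher in CG3893. On arms 2L and 3L alone, with 36 genes, 0 were past 1.5-fold lower in CG3893, and in HP1a 2 were past 2-fold higher, 1 past 2-fold lower, 2 past 1.5-fold higher and 4 past 1.5-fold lower. These are counts and not shares, so the smaller set alone can move them. No share over all genes is given at any of these settings, nor without the filter on low values. Leaving out the filter on low values, with 84 genes, moved none past these limits. In HP1a it gave 6 genes past 2-fold higher in place of 4 and 9 past 1.5-fold higher in place of 6, both at the limit of 1.5 times. Leaving out U, which holds 0 of the 64 genes, could change nothing and is not counted. Against the median of the Piwi, Armi, Mael and CG3893 libraries, a reference added after the data were seen, 2 were past 2-fold higher in HP1a; the cause was not tested. Genes under 5 RPKM rest on the fewest reads, and HP1a is the shallowest library.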

Other observations

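Below the mean of 1 RPKM, 5 of the 68 pericentromeric loci reached 1 RPKM in at least 1 library. The share over all genes below that mean is not given, so the 5 are not read as a result. The gene spok, which encodes the cytochrome P450 Spookier of ecdysone synthesis (3RHet, 2127183 to 2158789), was listed at 0 in the control, at 0.106 RPKM in Piwi, 0.0582 in Armi, 0.154 in Mael and 0.0618 in CG3893, and at 2.95 RPKM in HP1a. CG41343, named lovit in RefSeq (3LHet, 911482 to 1053679), was listed at 0 in the control, Mael and CG3893, at 0.0874 RPKM in Piwi and 0.144 in Armi, and at 1.56 RPKM in HP1a. Both reached 1 RPKM in HP1a alone, so the way they were picked already made HP1a their highest library. CG41320 was lowest in the control, at 0.327 RPKM, and highest in Mael, at 1.01 RPKM. CG17169 was at 0.688 RPKM in the control and 1.42 in HP1a, and overlaps the entry of CG17159. CG12460 was between 0.661 and 1.13 RPKM.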
